A study of Mus musculus with 12 samples.

Results

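CpG methylation was compared between LSK cells of nonleukemic mice that carried both Tet2 loss and Nras G12D and LSK cells of mice that carried Tet2 loss alone. The members are 6 of the 12 libraries of the series, chosen by their titles, with 3 in each group. LSK cells are the Lin- Sca1+ cKit+ fraction of bone marrow, which holds the blood stem cells and the earliest progenitors. The control group had the genotype Tet2(-/-) and the other group the genotype Tet2(-/-) Nras(G12D), both on the strain C57BL/6 and at 6 months of age. Both groups therefore lacked Tet2, and Nras G12D was what set them apart by label. The design text describes the mutations as conditional in blood-forming tissue but names no Cre driver. The labels do not say whether the 3 libraries of a group came from separate animals, so every p-value measures the spread between these libraries, which may be technical.

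Tet2 is a dioxygenase that oxidises 5-methylcytosine, the first step by which a methyl group is removed from a CpG. Nras is a small GTPase that passes signals from growth factor receptors to the RAF, MEK and ERK kinases, and the G12D change keeps it in its active, GTP-bound state. Both genes are recurrently mutated in myeloid malignancies, and CpG-rich promoters of expressed genes are as a rule unmethylated while most other CpGs of the genome are methylated. The comparison asks what Nras G12D adds to Tet2 loss before leukemia.

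Sequences of 4 promoters are shown first because the results return to them. Each is the stretch of 250 bases before the transcription start, from RefSeq (GRCm38.p6), read 5′ to 3′ on the strand of its gene, and the capitals mark the CpGs that were measured in all 6 libraries. Igf2r and Npas1 had lower group means in the double mutant, Fbxo39 had a higher one, and Spry2 stands for the unmethylated promoters of MAPK feedback genes.
Igf2r: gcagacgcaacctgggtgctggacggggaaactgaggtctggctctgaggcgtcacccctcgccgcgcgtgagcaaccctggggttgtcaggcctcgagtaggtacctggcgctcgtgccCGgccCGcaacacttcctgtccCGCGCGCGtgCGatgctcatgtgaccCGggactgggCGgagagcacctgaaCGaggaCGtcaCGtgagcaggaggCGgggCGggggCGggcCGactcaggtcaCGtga
Npas1: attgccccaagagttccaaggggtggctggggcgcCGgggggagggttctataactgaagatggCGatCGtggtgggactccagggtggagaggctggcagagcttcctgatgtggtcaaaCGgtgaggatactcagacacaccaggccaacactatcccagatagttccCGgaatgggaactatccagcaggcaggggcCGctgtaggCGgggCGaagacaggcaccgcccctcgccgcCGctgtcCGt
Fbxo39: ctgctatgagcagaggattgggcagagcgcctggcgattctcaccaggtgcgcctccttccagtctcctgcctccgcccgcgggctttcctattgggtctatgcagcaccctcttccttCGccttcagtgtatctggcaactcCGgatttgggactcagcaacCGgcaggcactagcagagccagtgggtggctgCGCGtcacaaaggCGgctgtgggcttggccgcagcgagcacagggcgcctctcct
Spry2: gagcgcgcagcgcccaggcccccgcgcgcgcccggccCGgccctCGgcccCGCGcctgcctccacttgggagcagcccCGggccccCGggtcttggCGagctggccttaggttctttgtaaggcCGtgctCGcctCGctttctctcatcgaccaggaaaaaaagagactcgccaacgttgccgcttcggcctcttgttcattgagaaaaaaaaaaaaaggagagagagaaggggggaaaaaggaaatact
Of the CpGs in these stretches, 17 of 27 were measured in Igf2r, 10 of 14 in Npas1, 6 of 15 in Fbxo39 and 10 of 23 in Spry2. On mm9, the build of the deposited tables, the stretches lie at chr17:12962573-12962822, chr7:17062130-17062379, chr11:72127696-72127945 and chr14:106296037-106296286. Fbxo39 is on the plus strand and the others are on the minus strand.

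Summed coverage was 96300485 to 122263670 reads per library in Tet2 knockout and 115818046 to 129362137 in the nonleukemic double mutant. Median coverage of the CpGs compared was 66 to 97 reads, lowest in Tet2 knockout replicate 2. That replicate also stood apart from the others: over tiles (windows of 1000 bp) with a mean of 20 to 80%, the median absolute difference from the other Tet2 knockout libraries was 9.55 and 9.74 points. Tet2 knockout replicates 1 and 3 differed by 7.03 points, and nonleukemic libraries differed from each other by 5.62 to 5.71 points. Y chromosome positions were listed 360 times for Tet2 knockout replicate 1, 251 times for replicate 2 and 349 times for nonleukemic replicate 1, against 2 to 6 in the remaining 3 libraries. Mitochondrial CpGs, which serve as a gauge of incomplete conversion, read as methylated at 0.364% to 0.816% in Tet2 knockout and 0.392% to 0.849% in nonleukemic libraries, so the groups overlapped there. The check of the labelled cell type against promoters of other blood and stromal cells was thin: 4 of 42 marker genes were measured, 2 of them under 5%.

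No CpG, tile or promoter separated the groups past the test, and the average methylation of the double mutant was lower by less than 1 percentage point. Over 1028046 autosomal CpGs with at least 10 reads in each of the 6 libraries, the Tet2 knockout libraries had a mean methylation of 37.81%, 38.17% and 37.64% (replicates 1 to 3). The nonleukemic double mutant libraries had 37.56%, 37.44% and 37.46%. Every double mutant library was below every Tet2 knockout library, though the nearest pair was 37.64% against 37.56%. The group means were 37.87% ± 0.267 and 37.49% ± 0.0655 (SD, n = 3 each), a difference of -0.388 points with an exact two-sided permutation p of 0.1, the smallest that 3 libraries against 3 can give. It was -0.241 points without Tet2 knockout replicate 2 and -0.198 points without the 3 libraries with Y chromosome reads, which leaves 1 Tet2 knockout library. With CpGs weighted by their coverage in each library it was -2.74 points, a value that also moves with where the reads of a library fall, since the same weighting gave -0.0501, -1.93 and -0.751 points within CpGs under 20%, at 20 to 80% and over 80%.

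Methylated CpGs accounted for most of that difference, and unmethylated CpGs for almost none. Among the 361116 CpGs with a mean over 80%, the Tet2 knockout libraries had 95.23%, 95.58% and 94.69% and the nonleukemic libraries 94.46%, 94.27% and 94.47%. The groups did not overlap there, with a difference of -0.767 points (exact permutation p = 0.1), which was -0.561 points without Tet2 knockout replicate 2.
Among the 70820 CpGs at 20 to 80%, the Tet2 knockout libraries had 54.22%, 56.13% and 53.33% and the nonleukemic libraries 53.49%, 53.12% and 52.54%. Here the groups overlapped, since Tet2 knockout replicate 3 was below nonleukemic replicate 1. The difference of -1.51 points had an exact permutation p of 0.2. It was -0.722 points without Tet2 knockout replicate 2 and was 0.0676 points without the libraries with Y chromosome reads.
Among the 596110 CpGs under 20%, the means were 1.18% ± 0.0943 and 1.16% ± 0.0374 (SD, n = 3 each), the groups overlapped and the exact permutation p was 0.8.

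**Figure D1:**
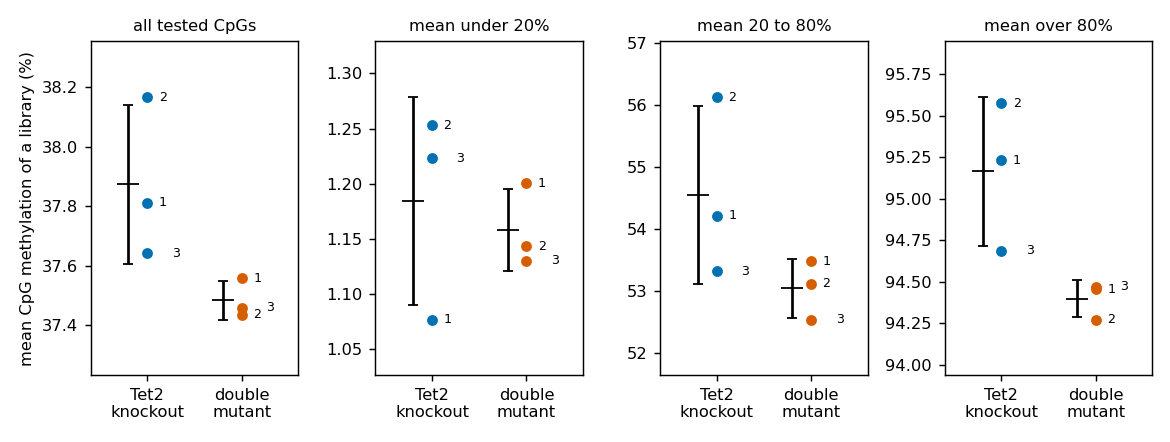
Mean CpG methylation of each library in percent, for all tested CpGs and for CpGs grouped by their mean over the 6 libraries. Points are libraries with their replicate number, the horizontal mark and bar are the group mean and SD, and the axes do not start at 0; the groups separate over all CpGs (37.87% against 37.49%) and over 80% (95.17% against 94.40%) and overlap in the other classes.

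Distance from placed gene starts followed the same division. Starts were placed for 8567 of 27025 genes, so CpGs counted as farther away may lie near a start that was not placed. Within 250 bp of a gene start that could be placed on mm9, 188594 CpGs averaged 1.66% and 1.59%, and the groups overlapped. At 250 to 1000 bp the means were 3.06% and 2.94%, again with overlap. Beyond that the groups no longer overlapped: the differences were -0.388 points at 1 to 5 kb, -0.540 points at 5 to 50 kb and -0.535 points farther away (exact permutation p = 0.1 for each of the 3, the smallest possible). Without Tet2 knockout replicate 2 they were -0.215, -0.335 and -0.368 points.

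The other genotypes put the size of these differences in scale. Over the 918659 CpGs also covered in the remaining 6 libraries, Tet2 knockout averaged 34.14% ± 0.260, the nonleukemic double mutant 33.79% ± 0.0602, Nras(G12D) alone 33.36% ± 0.204 and the double mutant labelled leukemic 31.41% ± 0.673 (SD, n = 3 each). For CpGs at 20 to 80% the same groups had 54.07%, 52.53%, 50.35% and 44.76%, and for CpGs over 80% they had 95.11%, 94.36%, 93.60% and 88.35%. In each of these 3 sets the nonleukemic double mutant mean lay between Tet2 knockout and Nras(G12D). The classes were set from the Tet2 knockout and nonleukemic libraries alone. CpGs chosen for being over 80% in those can read lower in groups that took no part in the choice. The class levels of Nras(G12D) and the leukemic group therefore partly follow from the choice.

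At single regions, 0 of 1028046 CpGs were called (adjusted p under 0.05 and at least 25 points, quasi-binomial model), 0 of 95638 tiles and 0 of 6803 promoters (at least 10 points for both). The share called was 0% in each. The smallest adjusted p was 0.892 for CpGs, 0.754 for tiles and 0.526 for promoters. At an unadjusted p under 0.05 the model counted 19302 CpGs (1.88%) higher and 31627 (3.08%) lower in the double mutant. The counts were 1921 tiles (2.01%) higher and 4119 (4.31%) lower, and 471 promoters (6.92%) higher and 163 (2.4%) lower. Evenly spread p-values, without any group difference, would put 51402 CpGs, 4782 tiles and 340 promoters under 0.05, both directions together. limma on log ratios called 0 of each as well. At an unadjusted p under 0.05 it had 18350 CpGs higher and 35974 lower, 1782 tiles higher and 3802 lower and 275 promoters higher and 126 lower. The libraries did not overlap at 17017 CpGs (1.66%) that were higher and 30547 (2.97%) that were lower. With labels that carry no information, 3 libraries separate fully from 3 with a probability of 0.1, both directions together. A lack of overlap at a CpG, tile or promoter is therefore common without a group difference. A p that misses the threshold with 3 libraries a group does not show that the groups were alike. Of all tiles, 86.0% differed by less than 5 points between the group means, and 95% of the differences lay between -9.28 and 7.31 points.

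Although no tile was called, tiles in which the libraries of the groups did not overlap leaned to lower methylation. As given above, such tiles are common without a group difference, so their number alone shows none. The double mutant was lower in every library in 6916 tiles (7.23%) and higher in every library in 3738 (3.91%). Among them, 903 tiles (0.944%) were lower and 362 (0.379%) higher by at least 10 points.
The lean differed with the mean level of the tile over the 6 libraries. Of tiles with a mean of 90 to 100%, 9.22% were lower without overlap and 2.39% higher. Of tiles at 0 to 5% the order turned, with 2.53% lower and 7.45% higher, while the mean of those tiles differed by -0.0553 points.
Partly methylated tiles (20 to 80%) had a negative mean difference on 19 of 19 autosomes, from -0.960 points on chromosome 3 to -2.62 points on chromosome 14. The autosomes were read in the same 6 libraries, so they are not separate confirmations. On several the groups overlapped, with an exact permutation p of 0.4 on chromosomes 12 and 15. Without Tet2 knockout replicate 2 the mean difference was still negative on 19 of 19 but smaller, from -0.197 points on chromosome 3 to -1.98 points on chromosome 14. Tiles lower without overlap outnumbered those higher on 18 of the 19, chromosome 19 being the exception.

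**Figure D2:**
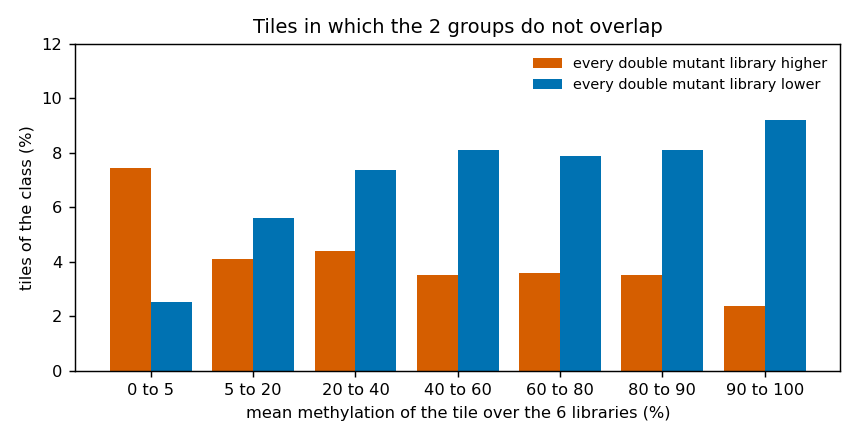
Percent of tiles in which every double mutant library was higher (orange) or lower (blue) than every Tet2 knockout library, by the mean methylation of the tile over the 6 libraries. Lower tiles reach 9.22% of the class at 90 to 100%, and higher tiles reach 7.45% of the class at 0 to 5%.

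The tiles described singly are the 5 with the smallest p in each direction among those with at least 5 CpGs and no overlap. None was called (adjusted p = 0.754 for each), and genes are given by the nearest start that could be placed, so a gene that was not placed may lie nearer.
The tile at chr1:91832000-91832999 lay 4249 bp upstream of the start of Gbx2, a homeobox gene of brain patterning. Its methylation was 42.4%, 45.9% and 45.2% in Tet2 knockout and 58.3%, 62.3% and 63.5% in the double mutant. The double mutant libraries were all higher, by 16.9 points on average, and Nras(G12D) libraries averaged 45.05%.
A tile at chr8:42219000-42219999, with no placed start within 50 kb, had 0%, 0.130% and 1.68% in Tet2 knockout and 27.6%, 20.9% and 13.4% in the double mutant. It averaged 0.828% in Nras(G12D) and 0.876% in the leukemic group, so the nonleukemic libraries alone were high.
A similar pattern held at chr6:116601000-116601999, 22281 bp upstream of the zinc finger gene Zfp422. Tet2 knockout had 21.4%, 16.3% and 13.1% there and the double mutant 68.0%, 77.4% and 43.7%, against means of 10.9% in Nras(G12D) and 10.7% in the leukemic group. Both other higher tiles were at low levels: the tile that holds the start of Pid1 had means of 1.43% and 5.16%, and the tile beside Gm32267 had means of 4.37% and 7.36%. The Pid1 difference of 3.73 points was 0.644 points at a coverage minimum of 20.

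Lower tiles were mostly highly methylated in Tet2 knockout. At chr6:146634000-146634999, 42899 bp downstream of the start of Med21, a subunit of the Mediator complex, Tet2 knockout had 87.5%, 87.6% and 86.8% and the double mutant 70.8%, 71.8% and 62.9%. The difference of -18.8 points left both groups without overlap, and the means of Nras(G12D) and the leukemic group, 67.9% and 69.5%, were near that of the double mutant.
At chr9:21615000-21615999, 12010 bp upstream of Kank2, the libraries had 95.7%, 97.0% and 96.3% against 88.4%, 89.3% and 89.4%. The leukemic group averaged 59.99% there.
At chr16:31412000-31412999, 15840 bp upstream of Bdh1, which encodes a ketone body dehydrogenase of mitochondria, the means were 98.0% and 92.0%. At chr5:52759000-52759999 they were 51.2% and 32.0%, with no placed start within 50 kb. The tile at chr6:116589000-116589999, 10281 bp upstream of Zfp422, had means of 97.5% and 81.4%, a difference of -16.1 points that was -7.12 points at a coverage minimum of 20.

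**Figure D3:**
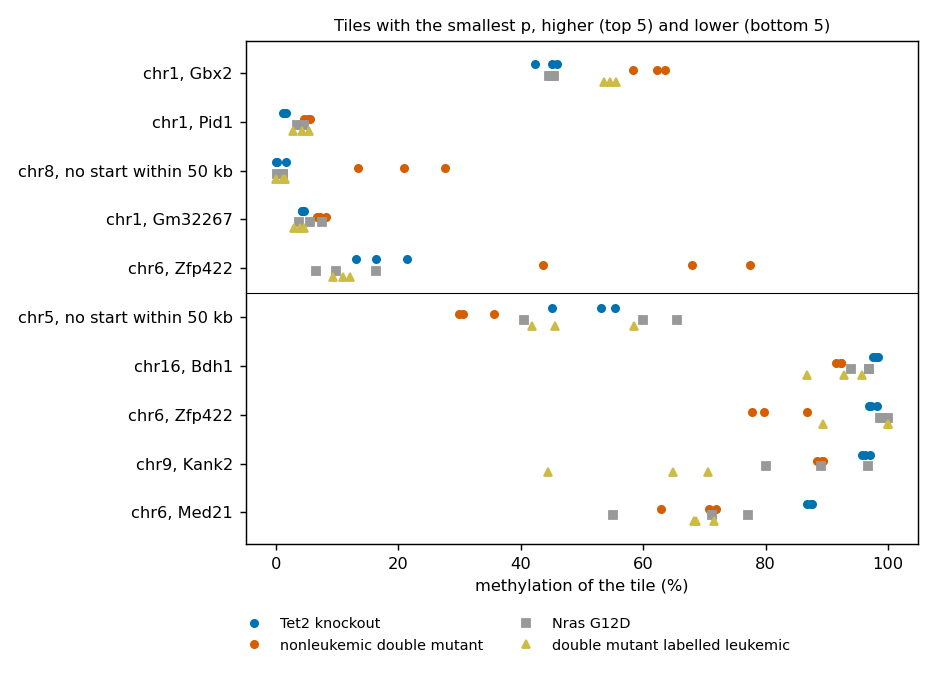
Methylation in percent of the 10 tiles with the smallest p, each with its chromosome and nearest placed gene, the 5 higher tiles above the line and the 5 lower below. Each marker is 1 library (3 per group, 4 groups); the tile of chromosome 8 has 13.4% to 27.6% in the nonleukemic double mutant and at most 1.68% in Tet2 knockout.

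Some of these tiles lay where the libraries of the groups also differed in which positions were covered at all. With at least 20 reads in all 3 libraries of one group and no listing in the other, 651 positions were found for the double mutant and 234 for Tet2 knockout. Of the 651, chromosome 8 held 345 and chromosome 6 held 77. The Zfp422 tiles each had 14 such positions within 1 Mb, the chromosome 5 tile had 7, the Med21 tile 3 and the chromosome 8 tile 2. Tiles with at least 5 of them within 1 Mb differed by at least 10 points without overlap in 2.12% of 4112, against 1.29% of the 91526 others. The part of sequence differences between the animals in these tiles was not tested.

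The promoters measured were nearly all unmethylated in both groups. Placement needed at least 8 matched CpGs, or 5 between placed neighbours, so promoters with fewer measured CpGs are not among them. Including promoters placed between already placed neighbours, 8043 were measured, and 7552 of them had a mean under 5%. Called promoters numbered 0. Of the 6803 placed uniquely, 528 (7.76%) were higher and 149 (2.19%) lower without overlap, and of all 8043, 581 (7.22%) were higher and 175 (2.18%) lower. The lean to higher values was made of small differences: the median over all promoters was 0.00727 points, and 13 promoters (0.162%) were higher and 17 (0.211%) lower by at least 5 points without overlap. Its size also depended on the libraries. Of uniquely placed promoters without overlap, 954 were higher and 491 lower without Tet2 knockout replicate 1. The counts were 868 and 459 without replicate 2, 951 and 366 without replicate 3, and 843 and 305 without nonleukemic replicate 1. Fewer libraries make a lack of overlap easier, so these counts cannot be set against 528 and 149. At an unadjusted p under 0.05 of the model, 371 were higher and 391 lower without Tet2 knockout replicate 1. There were 346 and 219 without replicate 2, 374 and 188 without replicate 3, and 408 and 91 without nonleukemic replicate 1.

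The promoters with the smallest p (adjusted p = 0.526 for each) illustrate that scale. Adamts20, which encodes a secreted metalloproteinase, had 0.112%, 0.0335% and 0.0913% in Tet2 knockout and 0.752%, 0.890% and 0.895% in the double mutant. Tafa5 had means of 1.48% and 3.08%, a difference of 1.59 points that was 0.527 points with reads thinned to equal coverage. Erfl, Fcho2 and Shld2 were at 0% in all 3 Tet2 knockout libraries and averaged 1.27%, 0.534% and 0.181% in the double mutant.
In the other direction, Ndufa9, a subunit of mitochondrial complex I, had 0.996%, 5.80% and 3.46% in Tet2 knockout and was at 0% in all 3 double mutant libraries, a difference of -3.42 points that was -2.23 points without Tet2 knockout replicate 2. Nup214, a nuclear pore protein, Srebf1, a transcription factor of lipid synthesis, and Gm15927 had differences of -0.504, -1.16 and -0.418 points. Nup214 had -0.184 points with separate strands and -0.301 points with no filter on high coverage.
Npas1, a neuronal bHLH-PAS transcription factor, was the only one of the 10 above 10% in a group mean. Its promoter had 14.2%, 16.9% and 16.6% in Tet2 knockout and 9.53%, 8.33% and 11.7% in the double mutant, a difference of -6.03 points without overlap. Of the 16 CpGs measured in the window, 12 were lower and 4 higher in the double mutant, and 3 did not overlap. Among those 3, the CpG 40 bp after the start was higher, with means of 0% and 2.67%. Over all CpGs, 1.66% were higher and 2.97% lower without overlap. The leukemic group averaged 6.39% there and Nras(G12D) 13.2%.

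Further promoters that differed by at least 5 points without overlap were chosen after their values were seen. Igf2r, an imprinted gene whose product binds insulin-like growth factor 2 and lysosomal enzymes, had 43.5%, 44.9% and 44.0% in Tet2 knockout and 37.9%, 36.3% and 28.0% in the double mutant. Every double mutant library was lower, the difference was -10.1 points, and the adjusted p was 0.536. The promoter was lower again in Nras(G12D), at a mean of 23.5%, and averaged 29.6% in the leukemic group.
Among the 19 CpGs measured in its window, 16 were lower in the double mutant and 7 did not overlap between the groups. The differences ran from -27.0 to 15.6 points, and the lowest coverage of any of them was 34 reads. The even promoter mean of the Tet2 knockout libraries hid a difference between them: at 56 bp before the start, replicate 2 had 82.2% and replicates 1 and 3 had 50.4% and 50.0%.
Madcam1, an adhesion molecule of vessels, had 32.6%, 30.8% and 37.7% against 24.4%, 21.3% and 24.7%. The predicted gene Gm38732 had means of 59.6% and 47.4%. Prom1, which encodes the surface protein CD133, had means of 30.7% and 25.7%.
Among those higher, the predicted gene Gm12111 had 43.0%, 40.1% and 27.7% in Tet2 knockout and 59.3%, 54.5% and 44.7% in the double mutant. Fignl2 had means of 63.6% and 76.1%, a difference of 12.5 points that was 6.77 points without Tet2 knockout replicate 2. Fbxo39, which encodes an F-box protein, had 2.12%, 2.67% and 4.45% in Tet2 knockout and 13.9%, 7.81% and 9.89% in the double mutant. Its 8 CpGs were all higher, 3 of them without overlap, with coverage down to 13 reads. The CpG counts of Npas1, Igf2r and Fbxo39 describe promoters already chosen for their differences and are no separate support. Papolb, a poly(A) polymerase of the testis, had means of 42.0% and 49.2%. Kcnj5, a potassium channel subunit, had means of 1.77% and 7.40%. The windows of Kcnj5 and Fignl2 held 3 and 4 measured CpGs, and those of Madcam1, Gm38732 and Gm12111 held 5 each. All of these were placed between placed neighbours.

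**Figure D4:**
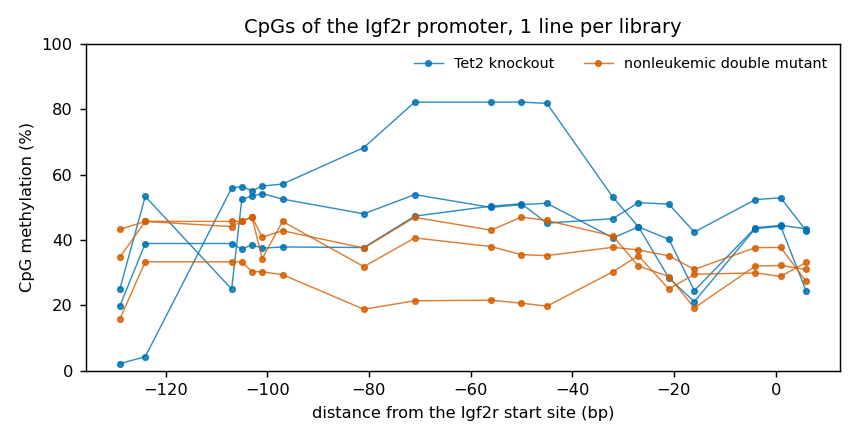
Methylation in percent of the 19 CpGs measured in the Igf2r promoter window, by distance in bp from the start site (negative is upstream), with 1 line per library and 3 per group. Double mutant lines run below most Tet2 knockout lines from 27 to 81 bp upstream, where Tet2 knockout replicate 2 reaches 82.2%.

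Promoters of signalling and blood cell genes were then read from 11 lists. Of 291 genes in all lists, markers of other cells included, 113 had a measured promoter, 0 were called, 8 were at 5% or above and 95 differed by less than 1 point. Without overlap, 7 were higher and 3 lower, which is near the share over all promoters given above.
Feedback inhibitors and regulators of Ras and MAPK signalling had 19 of 35 genes measured, all 19 under 5%. Their median difference was 0.0296 points, beside 0.00727 points over all promoters, and the extremes were -1.53 points in Dab2ip, a Ras GTPase activating protein, and 0.259 points in Rassf1, both with overlap. The Dab2ip difference was -0.0342 points without Tet2 knockout replicate 2, and that of Rassf1 was 0.133 points without Tet2 knockout replicate 3. The Spry2 promoter had 0.594%, 0% and 0% in Tet2 knockout and 0%, 0.584% and 0% in the double mutant. Nf1, the Ras GTPase activating protein neurofibromin, was the 1 member without overlap, with means that differed by 0.219 points.
Kinases and adaptors of the Ras, PI3K and MAPK pathways had 12 of 26 genes measured, all 12 under 5%. Their median was -0.318 points, beside 0.00727 points over all promoters. Their largest differences were -1.04 points in Hras and -0.969 points in Braf, both with overlap. Each rested on 1 library: Hras had 0.0160 points without Tet2 knockout replicate 2, and Braf had -0.0503 points without Tet2 knockout replicate 1. Leaving out Tet2 knockout replicate 2 also took Sos2 from -0.682 to 0.00933 points, Pik3cb from -0.793 to -0.101 and Mtor from -0.383 to -0.0744. Braf moved the other way, to -1.52 points. The list median therefore leans on that library. Sos1 was the 1 member of this list without overlap, with means of 0.831% and 0.157%, lower in the double mutant. The Nras promoter itself had means of 0.317% and 0.0629%. Genes induced by MAPK signalling had 9 of 21 measured, all under 5%, and none differed by more than 0.200 points in size. Mcl1, an inhibitor of apoptosis, had -0.200 points and the AP-1 gene Fosl2 had 0.118 points.

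Lineage and epigenetic genes showed as little, and such small differences often rested on 1 library: of the 113 promoters, 57 changed sign when some library was left out. Stem cell factors had 8 of 29 measured and 7 under 5%. The exception, Hoxa5, had 65.9%, 68.8% and 53.9% in Tet2 knockout and 63.8%, 70.7% and 72.8% in the double mutant, which overlapped. Its difference of 6.23 points was 1.76 points without Tet2 knockout replicate 3. Bmi1, a Polycomb subunit, differed by 0.139 points without overlap.
Myeloid factors had 4 of 24 measured, led by Csf2ra, a subunit of the GM-CSF receptor, with -2.38 points (-0.338 points without nonleukemic replicate 2), and the transcription factor Gfi1 with 0.294 points. Lymphoid factors had 8 of 25 measured, led by Pax5 with -1.69 points (1.35 points without Tet2 knockout replicate 2) and Bcl11b with -1.30 points. Erythroid and megakaryocyte factors had 3 of 15, led by the transferrin receptor gene Tfrc with 0.398 points and Zfpm1 with -0.194 points. No measured promoter of these 3 lists was without overlap.
Genes of DNA methylation had 11 of 19 measured, all under 5%, with -0.472 points in Idh2 and 0.382 points in Tet3, Tet2's paralog. Tumour suppressors had 15 of 34, all under 5%, led by the Wnt antagonists Sfrp5 with 1.37 points and Sfrp2 with -1.06 points, which was 0.170 points without Tet2 knockout replicate 2. Without overlap, 3 of the 15 were higher, beside 7.22% of all promoters, and no test of the list was run. They were Cdkn2b, an inhibitor of cell cycle kinases, with means of 0.212% and 1.24%, Rarb with 0% and 0.682%, and Cdkn1b with 0.0138% and 0.0650%. The Rarb window had 238 to 585 reads per library. Receptors and cytokine signalling genes had 16 of 31, led by Csf2ra and by Stat3 with -1.93 points. Stat3 had 0%, 6.52% and 0% in Tet2 knockout, and its difference was 0.241 points without replicate 2. Ifngr2 was the 1 member of that list without overlap, with -1.07 points (-0.301 points without Tet2 knockout replicate 2).
Imprinted genes were the most methylated list, with 8 of 28 measured, 4 of them over 20%, and a median of -0.532 points. After Igf2r, Zrsr1 had the largest difference, from 43.8%, 52.0% and 47.7% to 48.2%, 34.7% and 41.7%, with overlap, and had -2.89 points without nonleukemic replicate 2. Plagl1, at 31.1%, 31.2% and 32.8% against 32.5%, 29.5% and 37.8%, also overlapped.

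Away from promoters, tiles were assigned to the nearest placed start within 50 kb, so a gene that was not placed may lie nearer. Of 942 tiles assigned to 117 genes of the lists, 12 (1.27%) were lower and 0 (0%) higher by at least 10 points without overlap. Over all 45862 tiles assigned to any placed gene, 0.859% were lower and 0.299% higher, so the listed genes leaned the same way as the rest. None of the 12 was called (adjusted p = 0.754 for each), and they were chosen after their values were seen.
Of the negative regulators of Ras and ERK signalling, the tile assigned to Spry2, 23464 bp away, had 52.1%, 64.0% and 54.4% in Tet2 knockout and 27.1%, 47.1% and 40.2% in the double mutant. The tile assigned to Dusp6, a phosphatase that inactivates ERK, lay 20365 bp away. It had 83.1%, 89.2% and 88.7% against 79.9%, 70.6% and 68.4%. In PI3K signalling, the tile assigned to Pik3r1, the p85 regulatory subunit, lay 10672 bp away and had means of 55.5% and 43.0%. That assigned to Pik3cb, a catalytic subunit, lay 40870 bp away and had 34.3% and 22.5%.
Among transcription factors, the tile assigned to Gata3, 3727 bp away, had 86.1%, 92.2% and 84.7% against 80.4%, 69.8% and 66.9%. Those assigned to Meis1, Bcl11a, Hoxa5 and Hic1 had differences of -12.0, -13.7, -13.6 and -15.0 points. Their middles lay 39472, 30195, 27086 and 15154 bp from the starts. The Meis1 and Bcl11a tiles held 3 CpGs each, with as few as 46 and 64 reads in a library. The gap between the groups was narrow for Meis1, with 93.4% in Tet2 knockout replicate 3 and 93.0% in nonleukemic replicate 2.
The remaining tiles were assigned to Idh2, an isocitrate dehydrogenase that makes the Tet cofactor alpha-ketoglutarate, with -10.6 points, Gnas, with -11.9 points, and Igf2r. The Idh2 tile lay 46736 bp away. The Gnas tile had 51.1%, 31.1% and 27.0% in Tet2 knockout and 23.7%, 26.7% and 23.2% in the double mutant, and its difference was -4.54 points without Tet2 knockout replicate 1. The Igf2r tile held the promoter and 37 CpGs, and its means were 43.5% and 31.2%.

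**Figure D5:**
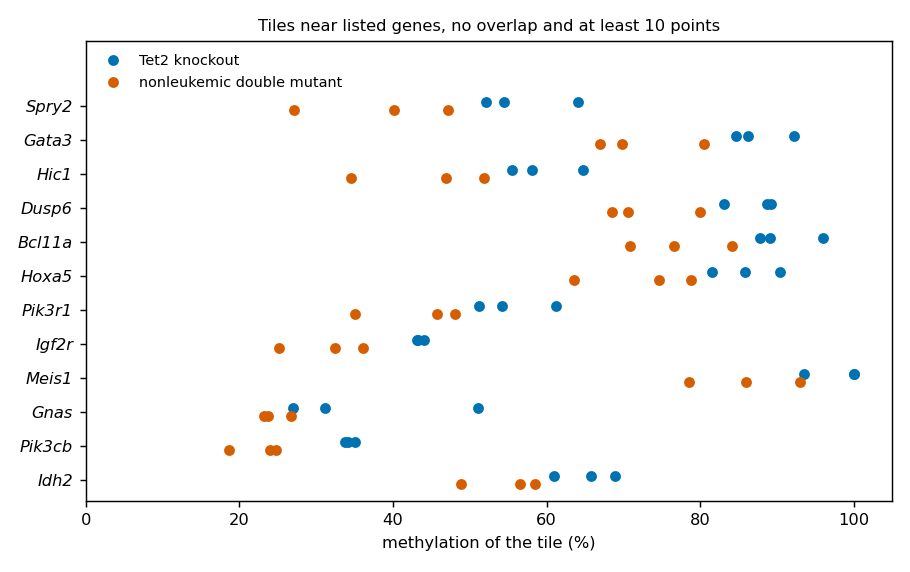
Methylation in percent of the 12 tiles assigned to listed genes that differed by at least 10 points without overlap, 1 point per library and 3 per group. Every double mutant point lies left of every Tet2 knockout point in its line, narrowly for Gnas (26.7% against 27.0%) and Meis1 (93.0% against 93.4%).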

How the data were processed

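The assay was reduced representation bisulfite sequencing (MspI digestion, 150 to 400 bp fragments, 50 bp single-end reads, per the labels' protocols). The submitters' processing notes name Bismark, without a version, and mm9 (NCBIM37). For each cytosine and strand the deposited tables hold the read count as coverage, with the percent reading C and the percent reading T. Reads with another base, 0.0225% to 0.0237% in the 6 libraries, were dropped. The sources mention no molecular identifiers, so PCR copies count as reads.

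From these, methylated and unmethylated reads were recomputed, strands summed, and autosomal CpGs with at least 10 reads in all 6 libraries kept, without the 0.1% of highest coverage per library. Tiles of 1000 bp and promoters needed 3 CpGs. A quasi-binomial model of the 6 libraries (4 residual degrees of freedom, dispersion moderated as in limma's squeezeVar and floored at 1) gave an F test with Benjamini-Hochberg adjustment over all features. The model was run on simulated tiles only, with a constant dispersion within each run, so that check does not cover CpGs or promoters. Calls needed an adjusted p under 0.05 and 25 points (CpGs) or 10 points (tiles, promoters). Promoter windows (250 bases before to 50 after the start) were placed on mm9 by the spacing of their CpGs, at least 8 matched, which placed 7080 of 27025 genes of the RefSeq table, and 1487 more between placed neighbours with at least 5. No annotation of mm9 was used, so exons and introns are not given.

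Named tiles and promoters were the 5 of smallest p per direction without overlap (tiles with at least 5 CpGs) because none was called, and per list the 2 members with the largest difference. One promoter with a larger difference than those named is not reported here. Members and lists were chosen with earlier results of these data known. Alternatives were other coverage, strand, weighting, tile and effect size settings, limma, fits on 9 and 12 libraries, a replicate block, and libraries or chromosomes left out. Software was limma 3.58.1 in R 4.3.3, and SciPy 1.17.1 with NumPy 2.4.6 in Python 3.11.15.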

Additional observations from a re-analysis of the deposited data

Results flagged for a closer look

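Positions with at least 20 reads in all 3 libraries of one group and no listing in the other lie outside the methylation comparison, which needs coverage in all 6 libraries. On chromosome 8 there were 345 such positions in the nonleukemic double mutant and 45 in Tet2 knockout. On chromosome 6 there were 77 and 38. Of the 345, 280 were listed in none of the other 9 libraries, and of the 45, 42 were listed in all 3 Nras(G12D) libraries. Chromosome 8 holds 5.94% of the positions shared by all 6 libraries and 53.0% of the positions listed for the double mutant alone among the 2 groups.

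Y chromosome positions were listed in number in 3 of the 6 libraries: 360 in Tet2 knockout replicate 1, 251 in Tet2 knockout replicate 2 and 349 in nonleukemic replicate 1. The group and the presence of Y reads were therefore not balanced.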

How the results depend on the processing

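Calls numbered 0 for CpGs, tiles and promoters under every alternative run for calls. The overall difference was negative under every alternative run for it, from -0.198 points (without the libraries with Y chromosome reads) to -2.74 points (weighted by coverage), and from -0.241 to -0.505 points with a library left out. CpGs under 20% changed sign with the X chromosome (0.0681 points) and with single libraries left out (-0.0329 to 0.0309 points). CpGs at 20 to 80% changed sign without the libraries with Y chromosome reads (0.0676 points, 1 Tet2 knockout library left, assumed to vary like the others), and the cause was not tested. Promoters placed between neighbours, tiles away from positions covered in 1 group, CpGs covered in all 12 libraries, and list members and tiles with a library left out were alternatives chosen after seeing the data.

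With the replicate number as a block, calls were again 0 for CpGs, tiles and promoters (smallest adjusted p 0.846, 0.616 and 0.4996). The numbers did not pair the libraries: deviations of same-numbered libraries correlated at -0.00930, 0.0177 and 0.0350 over partly methylated tiles. The labels give no shared litter or day. Single CpGs had coverage down to 10 reads.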
